A study of Homo sapiens with 6 samples.

Results

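Respiratory complex I is the NADH dehydrogenase of the inner mitochondrial membrane. It passes electrons from NADH through a flavin and a chain of iron-sulfur clusters to ubiquinone and pumps protons as it does so. Its matrix arm holds the redox centres, and its membrane arm holds the pumps, whose cores are encoded by mitochondrial DNA. The remaining core subunits and all accessory subunits are encoded in the nucleus. Proteins called NDUFAF assembly factors help to build the complex and are not part of the finished enzyme.

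The genes described here were the rows of the gene count table whose names begin with NDUF followed by A, B, S, V, C, AB or AF and end in a number. There were 46 such genes among 36601 rows: 37 nuclear subunit genes, 8 NDUFAF genes and NDUFA4, a protein that was named as a complex I subunit and later assigned to complex IV. All 46 passed the filter on low counts and were among the 17839 genes tested.

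The cells were U2OS, a human osteosarcoma line, expressing TDP-43-mNLS-Clover, a fluorescent form of the RNA-binding protein TDP-43, after induction with doxycycline. The aggregate group (3 libraries) was transfected with 50 nM fibril seeds of the TDP-43 LCD, and cells with visible Clover aggregates were sorted. The diffuse group (3 libraries) was mock transfected with protein storage buffer, and cells with diffuse Clover signal were sorted. Both groups carried the transgene, received doxycycline and were collected 48 h after transfection. Exposure to fibrils and the sorting gate differ together between the groups and cannot be told apart. TARDBP reads, given below, also differed between the groups, and that difference cannot be separated from them. Whether the line is a single clone is not given in the sources used here.

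Each library held 40279084 to 46863013 gene counts, and 1 count corresponds to 0.0212 to 0.0250 CPM (gene counts scaled to a total of 1e+06 with TMM factors). Complex I genes had 97 to 9115 counts in a library. TARDBP encodes TDP-43, and its reads may include the transgene: aggregate libraries held 109373, 121926 and 108492 of them, and diffuse libraries held 294057, 305206 and 327955. TARDBP was thus lower in aggregates (log2 fold change -1.53), and its part in the results below was not tested. Of 7 mesenchymal markers, all were expressed, with 3 higher and 3 lower in aggregates. Of 5 epithelial markers, KRT19 had at most 0.0476 CPM in any library. EPCAM averaged 4.07 CPM in aggregates and 4.62 CPM in diffuse cells, and CDH1 averaged 3.64 and 3.59 CPM. Neither passed the test described below. KRT8 averaged 163 CPM in aggregates and 360 CPM in diffuse cells, and KRT18 averaged 149 and 328 CPM. Both keratins were lower in aggregates. Of 5 blood cell markers, PTPRC, CD14, CD3E and HBB stayed at or under 0.401 CPM in every library. CD68, a lysosomal membrane protein used as a macrophage marker, averaged 14.0 ± 1.72 CPM in aggregates and 2.64 ± 0.312 CPM in diffuse cells (SD, n = 3 each), and its part in the results below was not tested. In bulk RNA, a change in the share of cells of some kind and a change in RNA per cell cannot be told apart.

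Most nuclear complex I subunit genes were higher in cells with aggregates. Of the 37 genes, 35 were higher, 0 were lower and 2, NDUFA6 and NDUFB11, did not pass the test (edgeR's quasi-likelihood test, Benjamini-Hochberg adjusted p under 0.05 over all tested genes). For comparison, 37.8% of all tested genes were higher and 37.6% were lower, 75.4% in either direction. Replicate libraries were alike, with a common biological coefficient of variation of 3.08%, so small changes could pass. The p values weigh changes against that spread between libraries of the same line. The median log2 fold change of the subunit genes was 0.49, a fold of 1.40, and single genes lay between -0.03 and 1.04, while the median over all tested genes was 0.01. In 33 of the 37 genes the groups did not overlap, always with the aggregate libraries above the diffuse libraries. Over all tested genes, 38.2% had such a separation in that direction. The subunit genes together took 0.23%, 0.233% and 0.228% of all gene counts in aggregate libraries 1 to 3, against 0.175%, 0.168% and 0.168% in diffuse libraries 1 to 3.

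**Figure D1:**
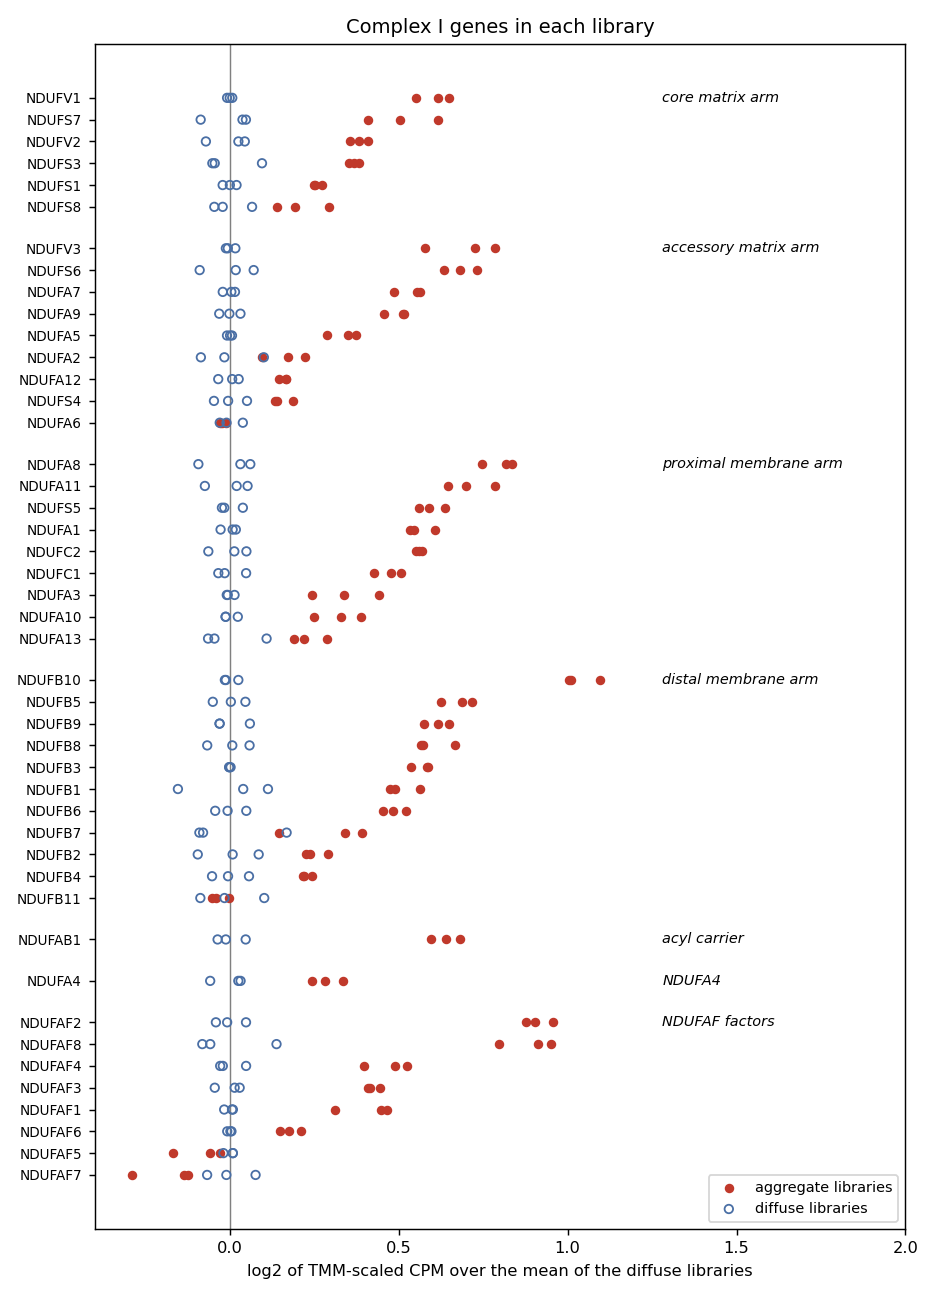
Each of the 45 rows is a complex I gene and each point a library, placed by the log2 of its TMM-scaled CPM over the mean of the diffuse libraries. Filled points are aggregate libraries and open points diffuse libraries, and genes are ordered within each group by fold change. The aggregate points lie to the right of the diffuse points for 39 of the 45 genes and to their left for NDUFAF5 and NDUFAF7.

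All 7 nuclear core subunits were higher in aggregates, with a median log2 fold change of 0.37. NDUFV1, which binds NADH and the flavin, had 112, 115 and 107 CPM in aggregate libraries and 73.6, 72.9 and 73.3 CPM in diffuse libraries. Its fold of 1.52 was the highest of the core subunits (log2 fold change 0.61, SE 0.04, adjusted p = 1.19e-27 by edgeR's quasi-likelihood test). NDUFV2, its iron-sulfur partner in the NADH-binding module, averaged 86.4 ± 1.61 CPM in aggregates and 66.3 ± 2.80 CPM in diffuse cells (SD, n = 3 each), a fold of 1.30.

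NDUFS1, the large iron-sulfur protein that follows the NADH-binding module, averaged 129.8 ± 1.12 CPM in aggregates and 108.5 ± 1.54 CPM in diffuse cells, a fold of 1.2. Every aggregate library stood above every diffuse library.

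NDUFS3, an early building block of the matrix arm, had 38.2, 37.4 and 37.8 CPM in aggregate libraries and 31.3, 28.3 and 28.4 CPM in diffuse libraries (log2 fold change 0.37). NDUFS8, an iron-sulfur protein next to the ubiquinone site, had 65.9, 70.7 and 63.5 CPM in aggregate libraries and 60.3, 55.8 and 56.8 CPM in diffuse libraries. At 0.21 its log2 fold change was the lowest of the core subunits. NDUFS7, which holds the terminal iron-sulfur cluster, had the fewest counts of all members, 158, 186 and 142 in aggregate libraries and 97, 112 and 113 in diffuse libraries, with a log2 fold change of 0.51 and an SE of 0.11. Its annotation and its splicing are described further on.

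The accessory subunits surround the core and stabilise it. In the matrix arm, 8 of 9 were higher, with a median log2 fold change of 0.34. NDUFV3, a small partner of the NADH-binding module, had 20.2, 23.3 and 22.4 CPM in aggregate libraries and 13.5, 13.7 and 13.5 CPM in diffuse libraries, a fold of 1.62. NDUFS6, a zinc-binding subunit of the matrix arm, had 67.4, 69.8 and 72.3 CPM in aggregate libraries and 44.0, 40.9 and 45.7 CPM in diffuse libraries, a fold of 1.6. The lowest aggregate library stood above the highest diffuse library for both genes. NDUFA7 (fold 1.45), NDUFA9, a member of the short-chain dehydrogenase family (1.41), and NDUFA5 (1.26) also rose without overlap between the groups.

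NDUFA6, an LYR-motif protein that anchors an acyl carrier protein to the matrix arm, did not pass the test. It had 80.4, 79.9 and 79.6 CPM in aggregate libraries and 83.3, 79.5 and 80.6 CPM in diffuse libraries (log2 fold change -0.02, SE 0.04, adjusted p = 0.621 by edgeR's quasi-likelihood test). The groups overlapped. Among the matrix-arm genes that passed, NDUFA2, NDUFA12 and NDUFS4 had the lowest fold changes, 1.12, 1.12 and 1.11. They are named here because their values were seen to depend on the processing. NDUFA2 (adjusted p = 0.0327 by edgeR) did not pass without aggregate library 2 or 3 or diffuse library 2 or 3, with adjusted p between 0.0667 and 0.178.

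In the proximal membrane arm, 9 of 9 accessory subunits were higher, and their median log2 fold change of 0.56 was the highest of the 4 larger groups. NDUFA8, a cysteine-rich subunit on the intermembrane-space side, had 31.1, 33.1 and 32.7 CPM in aggregate libraries and 19.3, 18.95 and 17.4 CPM in diffuse libraries, a fold of 1.74. NDUFA11, a membrane subunit, had 57.8, 61.3 and 55.7 CPM in aggregate libraries and 36.9, 33.8 and 36.1 CPM in diffuse libraries, a fold of 1.64. In both genes every aggregate library was above every diffuse library. The other subunits of this group had folds of 1.51 (NDUFS5), 1.48 (NDUFA1), 1.47 (NDUFC2), 1.39 (NDUFC1), 1.27 (NDUFA3), 1.25 (NDUFA10) and 1.17 (NDUFA13), and the groups did not overlap in any of them.

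The distal membrane arm is built from NDUFB subunits, of which 10 of 11 were higher, with a median log2 fold change of 0.51. NDUFB10, a cysteine-rich intermembrane-space subunit, changed most of all members. It had 52.5, 55.6 and 52.3 CPM in aggregate libraries and 25.8, 25.8 and 26.5 CPM in diffuse libraries, a fold of 2.05 (log2 fold change 1.04, SE 0.04, adjusted p = 2.18e-38 by edgeR's quasi-likelihood test). NDUFB5, a membrane-spanning subunit, had 55.0, 52.6 and 56.1 CPM in aggregate libraries and 35.3, 34.2 and 33.0 CPM in diffuse libraries, a fold of 1.6. NDUFB9, NDUFB8, NDUFB3, NDUFB1 and NDUFB6 had folds between 1.53 and 1.4, without overlap. NDUFB7, NDUFB2 and NDUFB4 had folds of 1.23, 1.19 and 1.17, and in NDUFB7 the highest diffuse library, at 32.3 CPM, stood above the lowest aggregate library, at 31.8 CPM.

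NDUFB11, an X-linked membrane subunit, was the distal gene that did not pass. It had 56.3, 57.8 and 55.9 CPM in aggregate libraries and 62.2, 54.5 and 57.3 CPM in diffuse libraries (log2 fold change -0.03, SE 0.04, adjusted p = 0.475 by edgeR's quasi-likelihood test). Diffuse libraries lay on both sides of the aggregate ones. In the annotation, 44.9% of the exonic bases of NDUFB11 overlap RBM10, a gene with a log2 fold change of 0.18. In all, 21 of the 46 genes share exonic bases with another gene, a share not computed over all genes. Among them are NDUFA1 (44.5%, with RNF113A, fold 1.48) and NDUFB2 (35.9%, fold 1.19). How reads in shared exons were assigned is not given in the labels.

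By arm, the median log2 fold change was 0.35 for the 16 matrix-arm subunits and 0.53 for the 20 membrane-arm subunits, and single genes of both arms covered much of the same range. With the GC and length correction described below, the group medians lay closer together. They were 0.35 (core) and 0.30 (accessory) in the matrix arm, and 0.41 (proximal) and 0.35 (distal) in the membrane arm. NDUFAB1, the mitochondrial acyl carrier protein that binds LYR-motif subunits in both arms and also serves fatty acid and iron-sulfur cluster synthesis, averaged 45.6 ± 1.35 CPM in aggregates and 29.3 ± 0.873 CPM in diffuse cells (SD, n = 3 each), a fold of 1.56. Its partners did not move alike: NDUFB9, the LYR-motif subunit of the distal arm, had a log2 fold change of 0.61, and NDUFA6 one of -0.02. NDUFA4 averaged 150 ± 4.81 CPM in aggregates and 123 ± 4.24 CPM in diffuse cells, a fold of 1.22.

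The NDUFAF assembly factor genes were also mostly higher, but with exceptions. Over all tested genes, 37.8% were higher and 37.6% lower. Of the 8 NDUFAF genes, 6 were higher in aggregates, 1 (NDUFAF7) was lower and 1 (NDUFAF5) did not pass the test. Their median log2 fold change was 0.42, a fold of 1.33, and single genes lay between -0.18 and 0.91. The groups did not overlap in any of the 8 genes, a separation that 76.2% of all tested genes had in either direction.

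NDUFAF2, a paralog of NDUFA12 that occupies the place of that subunit during late assembly, had 44.0, 43.3 and 45.7 CPM in aggregate libraries and 24.4, 23.4 and 22.9 CPM in diffuse libraries. Its fold of 1.88 was the largest of the assembly factors (log2 fold change 0.91, SE 0.05, adjusted p = 3.58e-33 by edgeR's quasi-likelihood test), while NDUFA12 had a fold of 1.12. NDUFAF3 and NDUFAF4, which bind each other and act on the ubiquinone-binding module, had folds of 1.34 and 1.38. NDUFAF3 averaged 20.6 ± 0.274 CPM in aggregates and 15.4 ± 0.412 CPM in diffuse cells, and NDUFAF4 averaged 24.4 ± 1.09 CPM in aggregates and 17.6 ± 0.520 CPM in diffuse cells.

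NDUFAF5 and NDUFAF8 are known as partners, NDUFAF5 being the enzyme that hydroxylates an arginine of NDUFS7 and NDUFAF8 the protein that stabilises it. NDUFAF8 had 28.9, 29.7 and 26.7 CPM in aggregate libraries and 16.9, 14.5 and 14.8 CPM in diffuse libraries, a fold of 1.85. NDUFAF5 had 15.2, 13.8 and 14.9 CPM in aggregate libraries and 15.6, 15.3 and 15.6 CPM in diffuse libraries (log2 fold change -0.08, SE 0.06, adjusted p = 0.188 by edgeR's quasi-likelihood test). Thus NDUFAF8 and the substrate gene NDUFS7 rose, and NDUFAF5 did not pass the test.

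NDUFAF7, a protein arginine methyltransferase, was the assembly factor that fell. It had 21.7, 19.3 and 21.5 CPM in aggregate libraries and 22.6, 24.9 and 23.5 CPM in diffuse libraries (log2 fold change -0.18, SE 0.05, adjusted p = 0.00139 by edgeR's quasi-likelihood test). NDUFAF1, part of the membrane-arm assembly complex with ACAD9, ECSIT and TMEM126B, averaged 10.8 ± 0.616 CPM in aggregates and 8.14 ± 0.0799 CPM in diffuse cells, a fold of 1.33. NDUFAF6, a factor of early assembly, averaged 16.95 ± 0.356 CPM in aggregates and 14.98 ± 0.0672 CPM in diffuse cells, a fold of 1.13 (adjusted p = 0.0038 by edgeR's quasi-likelihood test). When the test asked for a change beyond a fold of 1.2, NDUFAF6 and NDUFAF7 no longer passed.

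**Figure D2:**
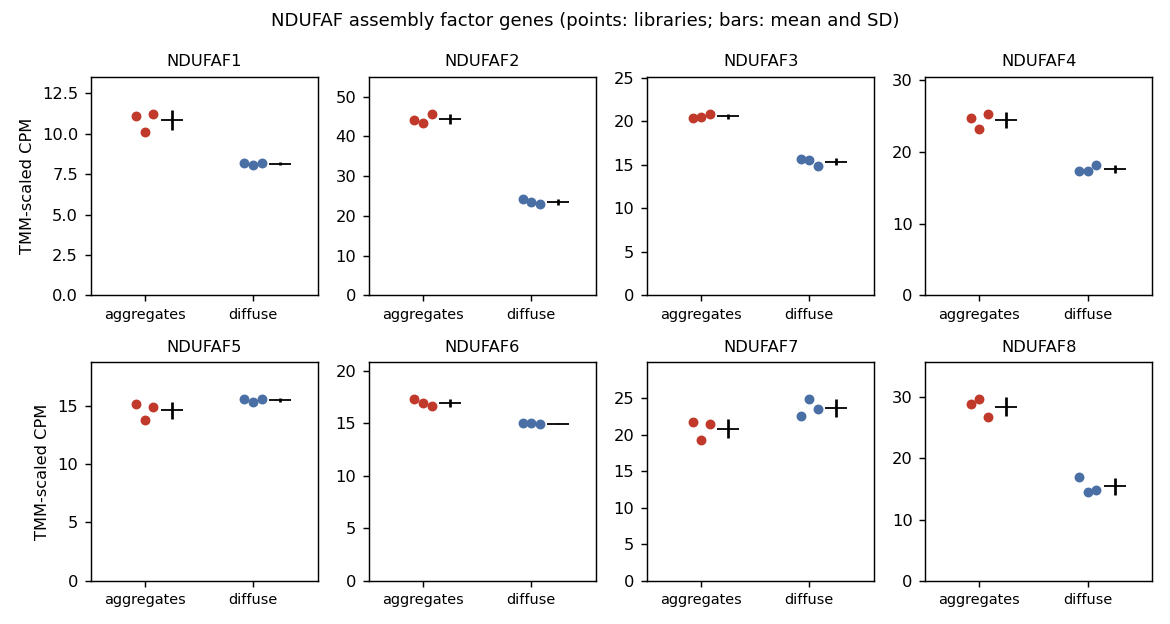
Each panel shows 1 NDUFAF gene, with aggregates on the left and diffuse cells on the right. Points are libraries in TMM-scaled CPM on an axis from 0, and the bars beside them give the mean and SD of 3 libraries. NDUFAF2 and NDUFAF8 show the widest gaps, and NDUFAF5 and NDUFAF7 are the panels in which the aggregate libraries lie lower.

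Set side by side, subunits and assembly factors had 35 of 37 and 6 of 8 genes higher, and medians of 0.49 and 0.42 on the log2 scale. The ratio of summed subunit counts to summed assembly factor counts was 12.5, 13.1 and 12.5 in aggregate libraries and 13.0, 12.5 and 12.8 in diffuse libraries. These ratios overlapped between the groups. The share of all gene counts taken by assembly factor genes was 0.0185%, 0.0178% and 0.0183% in aggregate libraries, against 0.0134%, 0.0135% and 0.0132% in diffuse libraries. Against a fold of 1.2, 25 subunit genes and 5 assembly factor genes were higher and 0 of either were lower, where 25.1% of all tested genes were higher and 26.5% lower by that test.

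Assembly factors without an NDUFAF name gave similar counts: 9 of 11 were higher, 1 was lower and 1 did not pass. Over all tested genes, 37.8% were higher and 37.6% lower. The median log2 fold change of the 11 genes was 0.39. TIMMDC1, a membrane-arm assembly factor, had the largest rise (log2 fold change 0.79). TMEM70, which is also needed for ATP synthase assembly, fell (log2 fold change -0.16). DMAC2 did not pass (0.06).

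The 7 complex I subunits encoded by mitochondrial DNA behaved less evenly. Only MT-ND3 passed the test, where 75.4% of all tested genes passed in either direction. MT-ND3 had 845, 837 and 894 CPM in aggregate libraries and 759, 806 and 687 CPM in diffuse libraries (log2 fold change 0.19). The median of the 7 was 0.25. Together these genes took 1.22%, 1.15% and 1.23% of the counts in aggregate libraries and 0.899%, 1.19% and 0.904% in diffuse libraries. Diffuse library 2 was therefore at the level of the aggregate libraries. Without diffuse library 2, all 7 passed as higher, with a median of 0.40. With the GC and length correction 0 of 7 passed, with a median of 0.07, and by the DESeq2 Wald test 3 were higher. The libraries were made from polyA RNA.

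The nuclear subunits of the other respiratory complexes moved in the same direction for the most part, where 37.8% of all tested genes were higher and 37.6% lower. In complex II, 3 of 4 genes were higher and 1 lower (SDHB 0.64 and SDHA -0.19 on the log2 scale). In complexes III and V, 9 of 9 and 15 of 15 were higher, with UQCRH at 0.95 and ATP5MC3 at 0.93, and in complex IV 9 of 10 were higher, with COX5A at 0.82. The medians of complexes II to V were 0.57, 0.42, 0.34 and 0.50, on both sides of the complex I value. With the GC and length correction described below they were 0.54, 0.39, 0.19 and 0.47.

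Other mitochondrial genes were also measured. Their counts are read beside the 37.8% higher and 37.6% lower of all tested genes. Of 13 genes for mitochondrial content, 11 were higher, 1 was lower and 1 did not pass, with a median of 0.49; TOMM22, an outer-membrane import receptor, rose by 0.91 and IMMT, a cristae organiser, fell by 0.19 on the log2 scale. Of 15 iron-sulfur assembly genes, 10 were higher and 4 lower, from BOLA3 (1.21) to ISCA1 (-0.44). The 12 transcriptional regulators were mixed: 5 were higher, 4 were lower and 3 did not pass, near the 75.4% of all genes called in either direction, with a median of 0.04, and with GC and length correction 8 were higher and 4 lower. PPARGC1B, a coactivator of respiratory genes, averaged 22 ± 1.2 CPM in aggregates and 6.70 ± 0.261 CPM in diffuse cells, and PPARGC1A, its relative, averaged 2.56 ± 0.317 CPM in aggregates and 4.11 ± 0.129 CPM in diffuse cells (SD, n = 3 each).

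The values changed with a correction for GC content and gene length. When smooth trends of counts on both were removed per library, 30 of 37 subunit genes were higher, 2 were lower and 5 did not pass, and the median fell to 0.35, with 39.5% of all tested genes higher and 36.3% lower. NDUFA6 and NDUFB11 then passed as lower (log2 fold change -0.25 and -0.27). NDUFS4, NDUFA2, NDUFA12, NDUFB4 and NDUFB7 no longer passed. Among assembly factors the counts stayed at 6 higher and 1 lower, and the median fell to 0.29. NDUFB10 kept the largest value, 0.80, ahead of NDUFB5 at 0.79 and NDUFV3 at 0.78. Without the correction, Pearson's r between fold change and GC content was 0.18 across the 46 genes, which share the same 6 libraries. Against the length of the main annotated transcript r was -0.19. The correction itself used the length of all annotated exons of a gene.

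**Figure D3:**
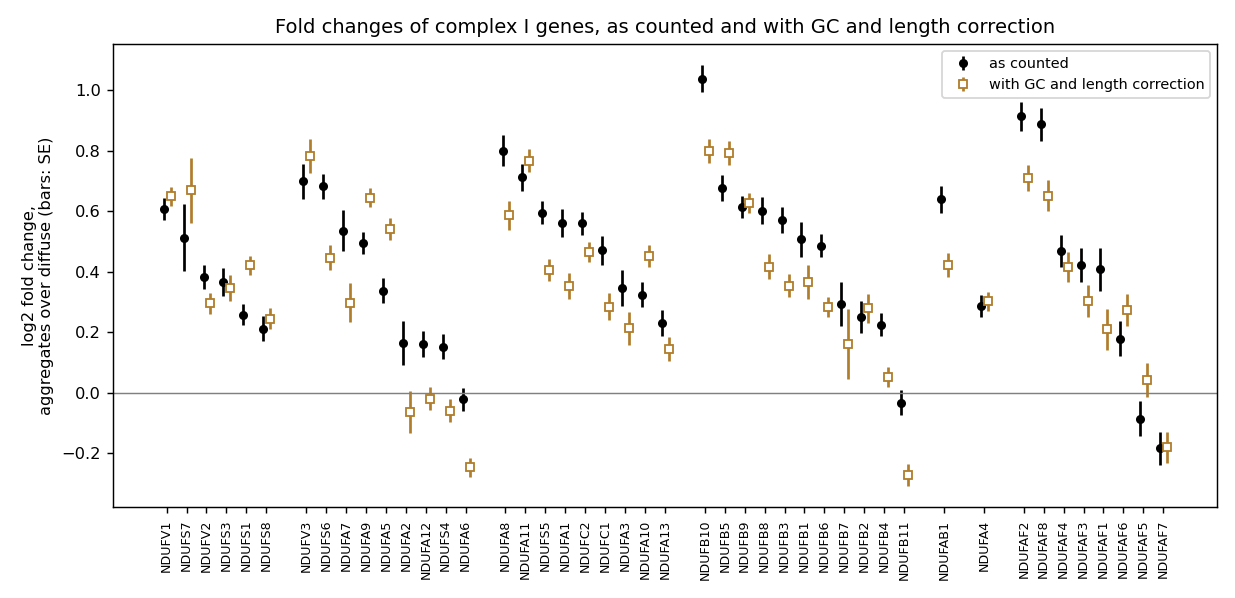
Log2 fold changes of aggregates over diffuse cells with their SE, for 45 genes as counted (filled circles) and with GC and length correction (open squares), in the groups from core matrix arm to NDUFAF factors. The correction lowers many of the small accessory subunits, raises NDUFB5, NDUFA9 and NDUFA5, and brings NDUFA6 and NDUFB11 to -0.25 and -0.27.

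The table of spliced reads gave a separate count of the same genes. Reads crossing introns assigned to each gene were summed and fitted in the same way over 11837 genes, an alternative added after the data were seen. All 46 genes could be fitted: 34 of 37 subunit genes were higher and 0 lower, and 5 of 8 assembly factors were higher and 1 lower, where 34.7% of all genes were higher and 34.6% lower. The median log2 fold changes were 0.42 for subunits and 0.37 for assembly factors. Across the 46 genes Pearson's r between both estimates was 0.96, and the median absolute difference was 0.05 on the log2 scale; both come from the same libraries.

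Some genes differed between the counts. NDUFA6 was higher by its spliced reads (log2 fold change 0.15, SE 0.04, adjusted p = 0.00179 by edgeR's quasi-likelihood test), against -0.02 by its gene counts. NDUFA12, NDUFS4 and NDUFAF1 did not pass by spliced reads. NDUFB11 and NDUFAF5 passed by neither count. NDUFS7 had 2537 spliced reads but 808 gene counts over all 6 libraries, and 49.1% of its exonic bases overlap the antisense genes AC005329.1 and AC005329.3. Its log2 fold change was 0.51 by gene counts and 0.59 by spliced reads. NDUFA2 had a larger excess, with 8322 spliced reads and 2285 gene counts and an overlap of 13.0%. Altogether 11 of the 46 genes had at least 2 spliced reads per gene count, a share not computed over all genes. Among them were NDUFB2 (2.99), NDUFA3 (2.78) and NDUFA7 (2.59). A read that crosses several introns can count more than once in these sums, and the levels of such genes by gene counts are uncertain.

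**Figure D4:**
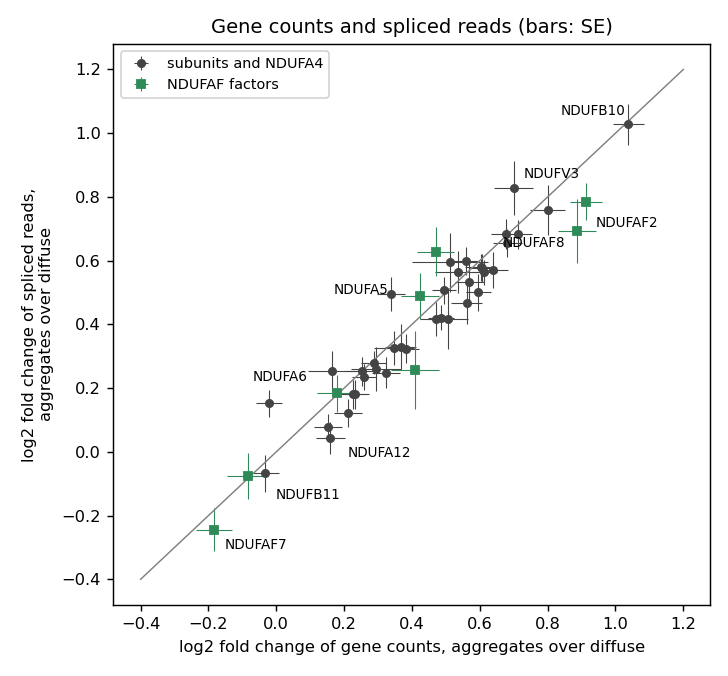
Log2 fold changes of aggregates over diffuse cells from gene counts (horizontal) and from spliced reads (vertical) for 45 genes, with SE bars. Squares are NDUFAF factors and circles the other genes, and the grey line marks equal values. Most genes lie close to the line, and NDUFA6 lies above it at -0.02 and 0.15.

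The share of intron clusters that changed in complex I genes was near that of all genes. Introns sharing splice sites were tested as clusters, and 3 of 99 tested clusters in the 46 genes changed (edgeR diffSpliceDGE with Simes' method, adjusted over 35898 clusters), where 5.02% of all clusters changed. By a cluster F test 6 changed, against 7.58% of all clusters. Leaving out 1 library gave 1 to 5 changed clusters, with 1 without aggregate library 1 or 3 and 5 without diffuse library 1. The 3 clusters were in NDUFS7, NDUFB9 and NDUFA6, with adjusted p = 0.00581, 0.00801 and 0.0261. Introns known to GENCODE 29 made up 99.5% of the reads over all 438 tested introns of complex I genes.

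In NDUFS7 (chromosome 19, 1383527 to 1395589, plus strand, hg38), the change was in the acceptor site of the last exon. The intron between exons 7 and 8 begins at 1393331 and ends either at 1395390, which joins to a last exon of 199 bases, or at 1394417, which joins to a last exon of 1172 bases. The transcript sequences across both junctions are shown because they are what the reads distinguish, with exon 7 in lower case and the last exon in capitals (GENCODE 29 transcripts, 15 bases each side):
NDUFS7 downstream acceptor: acatctacatcccagGCTGCCCACCTACGG
NDUFS7 upstream acceptor: acatctacatcccagACTGAGCTCCTCCCT

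The downstream acceptor took 87.6%, 82.8% and 85.8% of the reads in aggregate libraries and 73.0%, 70.7% and 71.0% in diffuse libraries. It held 262, 288 and 283 reads in aggregate libraries and 138, 128 and 142 reads in diffuse libraries. Intron counts of all genes summed to 28529818 to 32020553 in aggregate libraries and 25341453 to 26907926 in diffuse libraries. The upstream acceptor had 37, 60 and 47 counts in aggregate libraries and 51, 53 and 58 in diffuse libraries. Scaled to 1e+06 intron counts, the downstream acceptor had 8.981, 8.994 and 9.919 reads in aggregate libraries and 5.446, 5.004 and 5.277 reads in diffuse libraries. On the same scale the upstream acceptor had 1.27, 1.87 and 1.65 reads in aggregate libraries and 2.01, 2.07 and 2.16 reads in diffuse libraries. By these scaled values every aggregate library was higher for the downstream acceptor and lower for the upstream acceptor. The use of the upstream acceptor averaged 14.6 ± 2.46% in aggregates and 28.4 ± 1.25% in diffuse cells (SD, n = 3 each). Without aggregate library 1 the cluster missed the threshold (adjusted p = 0.0514 by edgeR).

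**Figure D5:**
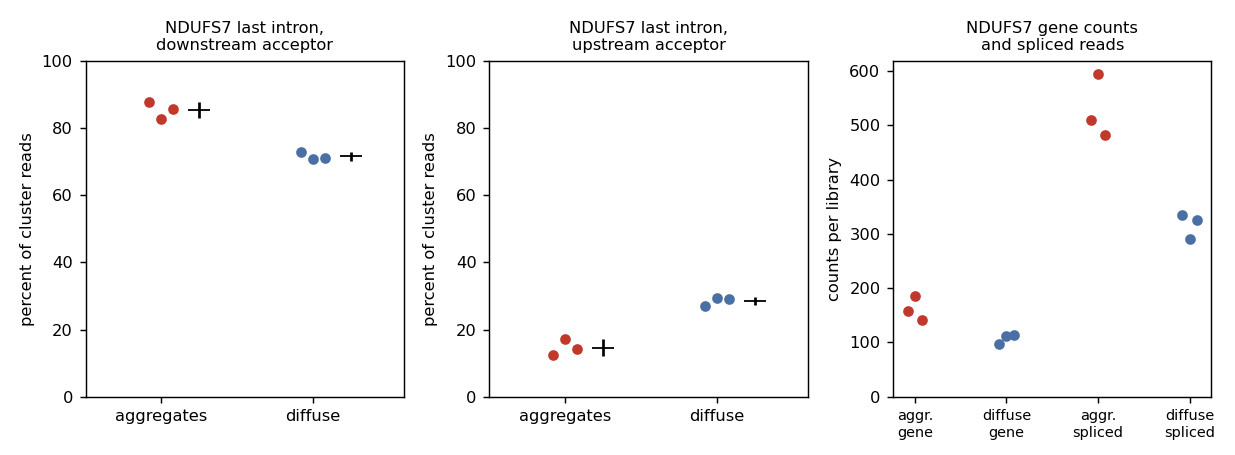
The left and middle panels give the percent of cluster reads using the downstream and the upstream acceptor of the last NDUFS7 intron, with points for libraries and bars for mean and SD. The right panel gives NDUFS7 gene counts and spliced reads per library. Aggregates are left of diffuse cells in each pair, and in all 3 panels the groups do not overlap.

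The other cluster calls rested on rare introns. In NDUFA6 (chromosome 22, minus strand), the intron that moved most, 42087176 to 42090605, held 51.7 ± 0.796% of the reads in aggregates and 51.2 ± 1.57% in diffuse cells, which overlapped. The intron with the lowest p was an unannotated one from 42087176 to 42090598, with 10, 14 and 8 reads in aggregate libraries and 24, 26 and 23 in diffuse libraries, or 0.246% and 0.696% of the cluster on average. The NDUFA6 cluster did not pass without any 1 of the 6 libraries. In NDUFB9 the intron that moved most held 57.4 ± 1.70% in aggregates and 56.9 ± 0.577% in diffuse cells. The intron with the lowest p there had 0.228 ± 0.0531% in aggregates and 0.550 ± 0.111% in diffuse cells. The NDUFB9 cluster did not pass without aggregate library 2 or 3 or diffuse library 2 or 3.

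Promoter windows from RefSeq (GRCh38.p14, 300 bases around each gene start) were available for 39 of the 46 genes and were searched on both strands for short core motifs of factors known at respiratory genes. The NRF1 letters CGCATGC were in 8 windows, 20.5%, against 4.74% of the windows of 27305 genes. The ETS letters CCGGAAG, which GABP proteins recognise, were in 7, 17.9%, against 12.2%. The YY1 letters AAGATGG were in 10, 25.6%, against 7.11%. The 27305 genes were not limited to those tested here. Of the genes for these factors, NRF1 and YY1 were lower in aggregates, with log2 fold changes of -0.24 and -0.61. GABPA, GABPB1 and GABPB2 did not pass the test (-0.01, 0.03 and 0.04). With the GC and length correction NRF1 and YY1 stood at -0.23 and -0.48, and the GABP genes at 0.12, 0.13 and 0.18. The part of these factors in the results was not tested. At least 1 motif was in 20 of the 39 genes and none in 19. Members with the NRF1 letters had a median log2 fold change of 0.40, and those without had 0.42. For YY1 letters the medians were both 0.42, and for ETS letters 0.37 with and 0.45 without.

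The windows of 3 genes, chosen after their values were seen, show the motifs in genes that rose and in one that did not pass, with matches in capitals. NDUFA8 (chr9:122159730-122160029, minus strand, fold 1.74) holds NRF1 letters that match on both strands and overlap. NDUFAF8 (chr17:81239061-81239360, plus strand, fold 1.85) holds the ETS and YY1 letters. NDUFA6 (chr22:42090723-42091022, minus strand, log2 fold change -0.02) holds the NRF1 letters, read on the other strand, and the YY1 letters. A match is a string of letters and no measure of binding.
NDUFA8 promoter: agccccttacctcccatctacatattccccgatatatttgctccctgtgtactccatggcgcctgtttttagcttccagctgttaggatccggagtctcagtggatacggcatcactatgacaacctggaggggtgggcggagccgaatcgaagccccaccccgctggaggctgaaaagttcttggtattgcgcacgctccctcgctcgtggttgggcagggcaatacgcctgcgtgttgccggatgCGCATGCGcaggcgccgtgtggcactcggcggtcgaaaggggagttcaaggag
NDUFAF8 promoter: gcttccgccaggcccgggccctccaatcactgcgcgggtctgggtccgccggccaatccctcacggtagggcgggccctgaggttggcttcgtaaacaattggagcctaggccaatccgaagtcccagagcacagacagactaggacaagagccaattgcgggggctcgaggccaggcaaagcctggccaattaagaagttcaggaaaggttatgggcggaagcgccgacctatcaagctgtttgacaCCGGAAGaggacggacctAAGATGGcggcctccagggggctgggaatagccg
NDUFA6 promoter: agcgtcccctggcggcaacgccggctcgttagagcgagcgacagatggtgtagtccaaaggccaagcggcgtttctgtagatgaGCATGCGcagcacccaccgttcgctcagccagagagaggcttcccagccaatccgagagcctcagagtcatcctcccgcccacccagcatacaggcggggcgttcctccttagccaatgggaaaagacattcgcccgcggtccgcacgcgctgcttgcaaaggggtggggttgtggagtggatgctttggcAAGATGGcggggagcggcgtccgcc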

How the data were processed

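PolyA RNA of 6 sorted U2OS cell libraries, 3 per group, was sequenced from a stranded library kit, per the labels' protocols. Reads were handled with fastp 0.23.2 and STAR 2.7.11a on hg38, per the submitters' processing notes. Which gene counter, strand setting and annotation were used is not given in the labels. The deposited tables hold whole-number counts, not normalized: 1 table by gene and 1 by intron, the second made with LeafCutter from spliced reads.

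Genes were filtered with filterByExpr, scaled with TMM and tested with edgeR 4.0.16 in R 4.3.3 (robust quasi-likelihood fit, no replicate block), with Benjamini-Hochberg adjustment over 17839 genes and a threshold of 0.05. Levels are TMM-scaled CPM. Intron clusters were tested with diffSpliceDGE where each library held at least 10 of their counts, using introns with at least 10 counts in all. Alternatives were DESeq2 1.42.0, other scalings and filters, a fold of 1.2, GC and length offsets (mgcv 1.9.3), a replicate block, leaving out each library, a cluster F test, a stricter cluster minimum of 20 counts, and spliced reads per gene. Both tests were checked on simulated counts in which a small part of the genes or clusters changed. A change across most genes, as called here, was not simulated. GENCODE 29 gave coordinates, introns, GC content and length, the last 2 for 97.8% of tested genes.

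Members and lists were chosen with earlier results of these data known. Genes were named by rule: all NDUFAF genes, all nuclear core subunits, the 2 largest rises of each other subunit group, all subunits that did not pass, NDUFAB1, NDUFA4, the largest rise and fall of each other list, and genes with a changed intron cluster. Among these, 1 gene enters the counts and medians but is not reported here by itself or drawn. The series describes the transfections as separate biological replicates. Read counts carry no molecular identifiers, so depth sets counting error only.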

Additional observations from a re-analysis of the deposited data

How the results depend on the processing

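Calls of the 46 genes kept their direction and side of the threshold with DESeq2 size factors, TMMwsp scaling and no filter on low counts. NDUFA2 did not pass with the DESeq2 Wald test (adjusted p = 0.107), nor without aggregate library 2 or 3 or diffuse library 2 or 3. Without 1 library NDUFB11 lay between -0.0819 and 0.0141, the higher value without diffuse library 1. Against a fold of 1.2, 0 assembly factors were lower. With GC and length correction, 2 subunits were lower, the medians were 0.353 for subunits and 0.289 for assembly factors, and NDUFS4 (-0.0588), NDUFA2 (-0.0642), NDUFA12 (-0.0196) and NDUFAF5 (0.0413) changed sign without passing. With a replicate block together with that correction, 2 subunits were lower, the medians were 0.354 and 0.289, and the same genes stood at -0.0579, -0.0632, -0.0193 and 0.0411. With spliced reads per gene the subunit median was 0.421 and NDUFA6 stood at 0.153. The cause of these shifts was not tested.

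Leaving out 1 library gave 35 or 34 higher and 0 lower subunits, 6 higher and 1 lower assembly factors, medians of 0.448 to 0.498 for subunits and 0.392 to 0.444 for assembly factors, and 12943 to 13310 changed genes. Changed clusters in complex I genes numbered 1 to 5, and over all genes 1171 to 1318, without 1 library. The cluster F test gave 6 and 2721. Without 1 library the NDUFB9 intron that moved most lay between -0.0242 points (without aggregate library 1) and 1.51 points, and that of NDUFA6 between -0.347 points (without diffuse library 2) and 1.19 points.

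With the replicate block, 35 subunits were higher, 6 assembly factors were higher and 1 was lower, and 13530 genes changed; no gene-level call of a member changed, but the NDUFA6 intron cluster did not pass (adjusted p = 0.0588). Deviations of log CPM from the group mean correlated at 0.0362, 0.0831 and 0.0602 between same-numbered libraries. Different-numbered libraries gave lower values, from -0.0596 to -0.00204. The same-numbered values were all positive and under 0.1, and the different-numbered values were all negative. The main fit did not pair the samples because the series describes the transfections as separate biological replicates. Pairing of the samples is therefore not excluded, and the replicate block above gives the counts under it. NDUFS7 had the fewest gene counts of the members, 97 to 186 in a library.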
